A study of Mus musculus with 18 samples.

Results

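The comparison described here set spleen monocytes of FcgRIIb knockout mice (FcgRIIb-/-) against those of wild-type C57BL/6 mice (WT), all given phosphate-buffered saline (PBS) and all taken on day 3. The 6 libraries, 3 of each genotype, were chosen by the genotype and treatment labels from 18 libraries in 6 groups. The study crosses 3 genotypes (WT, FcgRIIb knockout and Dectin-1 knockout) with 2 treatments (PBS and IVIg, pooled human immunoglobulin given into the blood), with 3 independent mice in each group. Its title asks how Dectin-1, a lectin encoded by Clec7a, and FcgRIIb bear on what IVIg does to monocytes. Here the genotype was compared without IVIg, and 3 other comparisons served as reference: FcgRIIb knockout with WT in IVIg mice, FcgRIIb knockout with Dectin-1 knockout in PBS mice, and the difference between the genotype effects in IVIg and in PBS. The cells were sorted from splenocytes as monocytes, and nothing in the labels tells which allele, cell type or exon the FcgRIIb deletion concerns or whether the knockout and WT mice were littermates.

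FcgRIIb, encoded by Fcgr2b, is the inhibitory receptor for the Fc part of IgG. Its cytoplasmic tail holds an immunoreceptor tyrosine-based inhibitory motif (ITIM) that recruits phosphatases, among them SHIP-1 (Inpp5d), and so opposes the activating Fc receptors, which signal through the common gamma chain (Fcer1g) and the kinase Syk. On B cells FcgRIIb also restrains the antigen receptor, and mice without it are known for raised antibody responses.

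The libraries were unequal, and 1 of them was shallow. WT PBS libraries held 35524848, 45044859 and 38844507 counts for replicates 1, 2 and 3, and knockout PBS libraries held 28524553, 719494 and 30214955. In knockout replicate 2, the shallow library, 3 counts made 4.24 CPM (counts per 1000000 counts), against 0.0654 to 0.116 CPM in the other 5, and 10357 genes had a count, against 17001 to 20199. Its Spearman correlation with the other 5 libraries was 0.771 to 0.788, against 0.924 to 0.981 among those 5. Its mitochondrial transcripts took 2.80% of counts, against 0.652% to 0.899%. Results are therefore given with it, and for many the value without it is given too. Knockout libraries also held more 18S ribosomal RNA (Rn18s), at 0.926%, 1.11% and 2.75% of counts, than the WT libraries, at 0.275%, 0.227% and 0.127%. The Dectin-1 knockout PBS libraries lay above these WT libraries too, at 0.576%, 0.844% and 0.590%. Monocyte markers were present throughout: Lyz2, the lysozyme of myeloid cells, lay at 17586 to 35187 CPM in the 6 libraries, and none of the 16 classical or 22 non-classical monocyte markers was at 0 in any of them. The titles carry a second code of unstated meaning, which knockout PBS replicates 1 and 2 share, and which knockout PBS replicate 3 shares with WT IVIg replicate 3.

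Throughout, a gene's level is given in CPM, scaled by trimmed mean of M-values factors, for replicates 1, 2 and 3 in that order. Differences are log2 fold changes, knockout minus WT, with their standard errors (SE) from edgeR's quasi-likelihood test over all 18 libraries unless a 17-library fit without the shallow library is named. Genes with a p under 0.05 after Benjamini-Hochberg adjustment over all genes tested were called. In sorted bulk samples, fewer cells of a type and less RNA per cell cannot be told apart. CPM levels are not scaled by gene length, so levels are compared between libraries and not between genes.

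The transcript of the deleted gene was still counted in the knockout. Fcgr2b (ENSMUSG00000026656, chr1:170786186-170804116, GRCm39) stood at 208, 302 and 299 CPM in WT and at 138, 249.9 and 187 CPM in the knockout. The groups overlapped, since the shallow knockout library lay above WT replicate 1, and the knockout mean was 71.0% of the WT mean, or 60.2% without the shallow library. The mean log2 difference of -0.51 had a two-sided exact permutation p of 0.2, where 3 mice against 3 can give no less than 0.1. In edgeR's quasi-likelihood test the difference was -0.58 ± 0.25 (SE), with an unadjusted p of 0.0348 and an adjusted p of 0.516. Gene-level counts do not show which exons the fragments came from, so they neither support nor go against the genotype label.

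The other Fc receptors showed no called difference. Fcgr1, the high-affinity IgG receptor, stood at 147, 175 and 207 CPM in WT and 146, 109 and 233 CPM in the knockout. Fcgr3, a low-affinity activating receptor, stood at 396, 372 and 319 CPM against 336, 408 and 545 CPM. Fcgr4, the activating receptor typical of non-classical monocytes, stood at 74.1, 123 and 94.8 CPM against 64.4, 167 and 103 CPM. For these 3 receptors the groups overlapped, with log2 differences of -0.03, 0.25 and 0.00. Fcer1g, the signalling chain that these activating receptors share, was the member whose groups did not overlap, at 494, 459.6 and 407 CPM in WT and 554, 1153 and 817 CPM in the knockout. Its log2 difference was 0.86 ± 0.33 (SE), with an adjusted p of 0.503 in edgeR's quasi-likelihood test, and it was 0.59 without the shallow library, in which it was highest. Fcgrt, the neonatal Fc receptor that salvages IgG, stood at 98.3, 89.5 and 70.2 CPM against 114, 73.4 and 148 CPM, with the shallow library inside the WT range.

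Across all genes, edgeR's quasi-likelihood test called 0 of 17040 genes (0%), and the smallest adjusted p was 0.122. At an unadjusted p under 0.05 it gave 1643 genes, 1047 higher (6.14%) and 596 lower (3.50%) in the knockout. In 618 genes (3.63%) all 3 knockout libraries lay above all 3 WT libraries, and in 1354 genes (7.95%) all 3 lay below. Without the shallow library the same test called 0 of 18068 genes (0%), with a smallest adjusted p of 0.224 and 1806 genes at an unadjusted p under 0.05, 1240 higher (6.86%) and 566 lower (3.13%). DESeq2 called 179 of 14034 genes (1.28%), 164 higher and 15 lower, and 19 without the shallow library, of which 16 were among the 179. Of the 179, the shallow library held the highest CPM of the 6 in 141. An example is Trpm3, a cation channel, with 71 counts there and 5 or fewer in each of the other 5 libraries. The absence of calls also rested on single libraries: edgeR's quasi-likelihood test called 40 genes without knockout PBS replicate 1, 9 without WT IVIg replicate 3 and 8 without WT IVIg replicate 1. Single genes are therefore described by their levels, and counts of genes are read against the shares above.

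Immunoglobulin transcripts, the products of B cells and plasma cells, were far higher in the knockout libraries. Igha, the constant region of the IgA heavy chain (chr12:113218450-113223856), stood at 7.70, 37.3 and 18.8 CPM in WT and at 535, 618 and 422 CPM in the knockout. Igkc, the constant region of the kappa light chain (chr6:70703419-70703950), stood at 11.9, 32.3 and 17.9 CPM against 297, 1007 and 395 CPM. Jchain, which joins IgA and IgM into polymers (chr5:88667668-88675750), stood at 6.15, 15.1 and 3.85 CPM against 99.9, 703 and 158 CPM. In all 3 genes each knockout library lay far above each WT library, and the counts behind Igha were 15705, 438 and 10940 in the knockout against 282, 1712 and 780 in WT. The log2 differences were 4.60 ± 1.27 (SE) for Igha, 4.67 ± 0.83 for Igkc and 4.98 ± 1.02 for Jchain. Their adjusted p-values in edgeR's quasi-likelihood test were 0.476, 0.122 and 0.162. DESeq2 gave adjusted p-values of 0.0295, 6.59e-05 and 0.0004. Without the shallow library the log2 differences were 4.48, 4.05 and 3.92.

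The gap differed between isotypes. Ighm, the IgM constant region, was the most counted heavy chain gene in every WT PBS library, at 265, 176 and 196 CPM, and stood at 355, 337 and 325 CPM in the knockout. Those groups did not overlap, but the gap was small beside that of Igha, with a log2 difference of 0.68 ± 0.24 (SE). Igha thus made up 2.81%, 17.2% and 8.49% of all heavy chain constant region counts in WT and 59.5%, 62.0% and 56.1% in the knockout. Ighg2b, an IgG constant region, stood at 0, 0.0218 and 0.0482 CPM in WT and 2.49, 0 and 1.54 CPM in the knockout. Ighg2c, another IgG constant region, stood at 0, 0.545 and 0 CPM against 1.98, 8.47 and 1.85 CPM, with every knockout library higher. Ighg3 was at 0, 0.0436 and 0.410 CPM against 0.273, 32.5 and 0.0386 CPM, a difference carried by the shallow library alone. Ighg1, at 0.741 CPM or less, and Ighd, at 6.02 CPM or less, overlapped between the groups, and Ighe had a count in none of the 6 libraries. Of the lambda constant genes, Iglc2 stood at 1.20, 1.29 and 1.57 CPM in WT and 3.48, 0 and 5.48 CPM in the knockout, Iglc1 likewise was at 0 in the shallow library and above all WT libraries in the other 2, and Iglc3 overlapped. Over the 11 immunoglobulin constant genes tested, the median log2 difference was 1.68, against -0.05 over all genes tested. Of the 11, 10 were higher, 6 with an unadjusted p under 0.05 and 4 with no overlap, against 6.14% and 3.63% of all genes. The median was 1.10 without the shallow library.

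**Figure D1:**
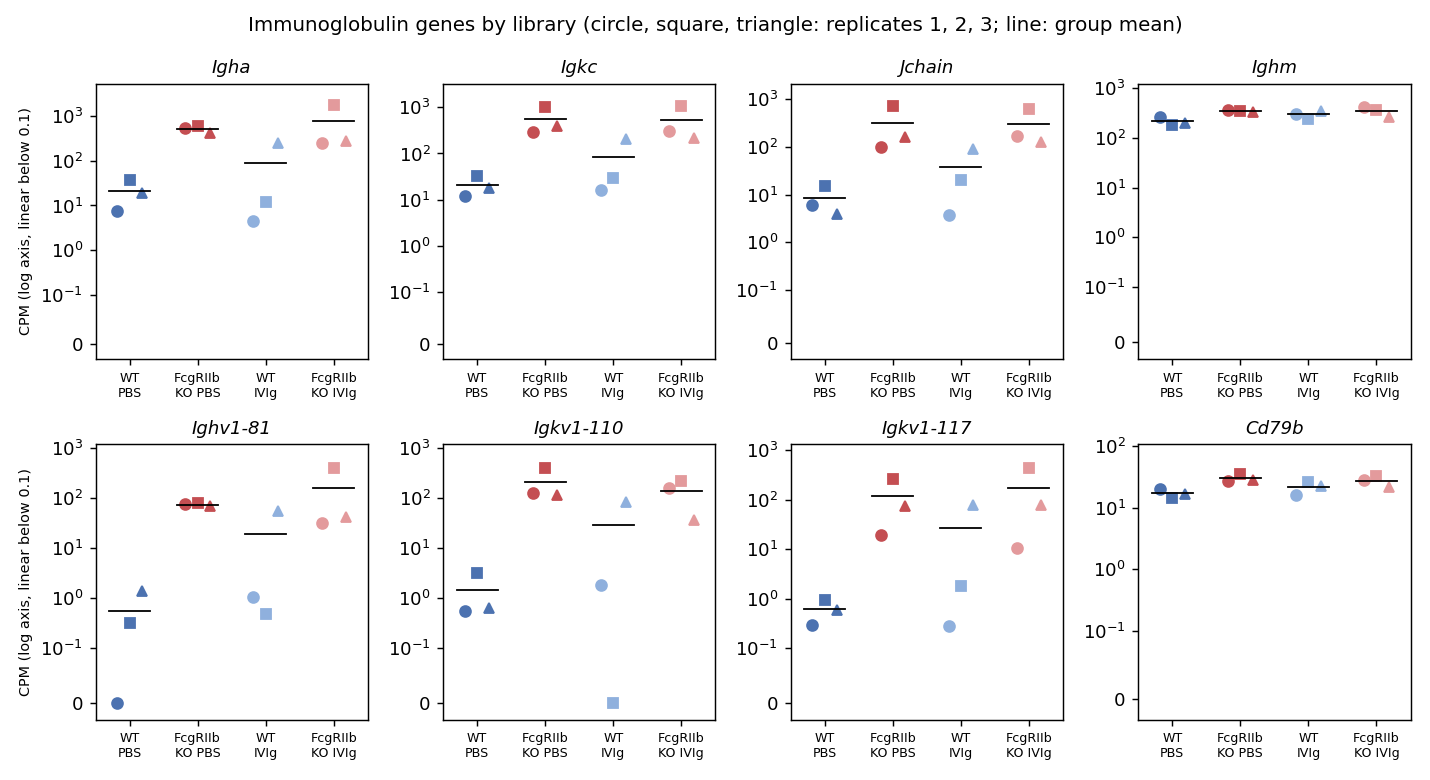
Levels of 8 immunoglobulin and B-lineage genes in the WT and FcgRIIb knockout libraries, PBS and IVIg. Each point is 1 library, the y axis is CPM on a scale that is linear near 0 and logarithmic above; the 3 knockout PBS libraries lie above the 3 WT PBS libraries in all 8 panels, and WT IVIg replicate 3 lies near the knockout libraries for Igha, Igkc, Jchain and the 3 V genes.

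The same few variable (V) genes made up most V gene counts of all 3 knockout libraries. V genes encode the antigen-binding part of an antibody and each B cell clone uses 1 heavy and 1 light chain V gene, so the share that 1 V gene takes tells how mixed the B-lineage transcripts are. They were chosen after their values were seen. Ighv1-81, a heavy chain V gene (chr12:115883899-115884332), took 82.1% (exact 95% binomial interval 80.6 to 83.5), 90.2% (79.8 to 96.3, 55 of 61 counts) and 85.2% (83.6 to 86.7) of heavy chain V counts in the knockout. In WT PBS it took 0% (0 of 270 counts, upper bound 1.36), 2.16% and 15.3%. The intervals cover counting error only. Ighv1-81 ran at 74.0, 77.6 and 67.6 CPM in the knockout and at 0, 0.305 and 1.35 CPM in WT.

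Among kappa V genes, Igkv1-110 (chr6:68247469-68248251) and Igkv1-117 (chr6:68098030-68098811) led in each knockout PBS library. Igkv1-110 took 75.9%, 53.8% and 51.4% of kappa V counts in the knockout and 4.80%, 11.6% and 5.66% in WT. Igkv1-117 took 11.4%, 35.9% and 33.4% in the knockout and 2.64%, 3.50% and 5.23% in WT. In CPM, Igkv1-110 stood at 129, 398 and 117 in the knockout against 0.546, 3.18 and 0.626 in WT. The log2 differences were 6.99 ± 1.55 (SE) for Ighv1-81, 6.90 ± 1.34 for Igkv1-110 and 6.98 ± 1.80 for Igkv1-117, none of them called by edgeR's quasi-likelihood test over 18 libraries. Near-identical V genes may share fragments, so the identity of a single V gene is uncertain.

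WT libraries were led by different V genes in each mouse. The leading heavy chain V gene was Ighv1-19 with 22.6% in WT PBS replicate 1, Ighv3-4 with 16.8% in replicate 2 and Ighv1-81 with 15.3% in replicate 3. The leading kappa V gene was Igkv10-96 with 19.7%, Igkv6-25 with 29.8% and Igkv9-120 with 10.02%, in the same order. The leading kappa joining (J) segment differed between the knockout libraries, although the leading V genes were the same. Igkj4 led with 56.9% of kappa J counts in knockout replicate 1, Igkj2 with 59.3% of 59 counts in the shallow library, and Igkj1 with 63.8% in replicate 3. Of the heavy chain J segments, Ighj4 led in all 3, with 47.5% in replicate 1, all 15 counts in the shallow library and 43.4% in replicate 3.

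The 3 V genes were not limited to the knockout PBS mice. In the FcgRIIb knockout IVIg libraries Ighv1-81 took 56.6%, 90.5% and 51.3% of heavy chain V counts, Igkv1-110 took 71.4%, 29.6% and 19.7% of kappa V counts, and Igkv1-117 took 4.78%, 57.8% and 42.5%. WT IVIg replicate 3 was alike, with 92.7% for Ighv1-81, 46.4% for Igkv1-110 and 42.5% for Igkv1-117, and with Igha at 258 CPM, Igkc at 206 CPM and Jchain at 89.4 CPM. In the other 2 WT IVIg libraries Ighv1-81 took 10.8% and 3.61%, and in the 3 Dectin-1 knockout PBS libraries 10.3%, 9.57% and 0% (0 of 62 counts, upper bound 5.78). So 7 of the 18 libraries, all 6 labelled FcgRIIb knockout and 1 labelled WT, had most of their heavy chain V counts in this gene. All 18 libraries enter the estimate of spread, and the calls in PBS mice depended on which were kept. Without WT IVIg replicate 3, edgeR's quasi-likelihood test called Igkc (adjusted p 0.00437), Jchain (0.0440), Igkv1-110 (0.000491) and Ighv1-81 (0.0141) in PBS mice. Without WT IVIg replicate 1, the same edgeR test called Igkc (0.0220), Jchain (0.0298) and Igkv1-110 (0.0237) too, and without WT IVIg replicate 2 Igkv1-110 (0.0219). Whether RNA or cells passed between samples was not tested.

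**Figure D2:**
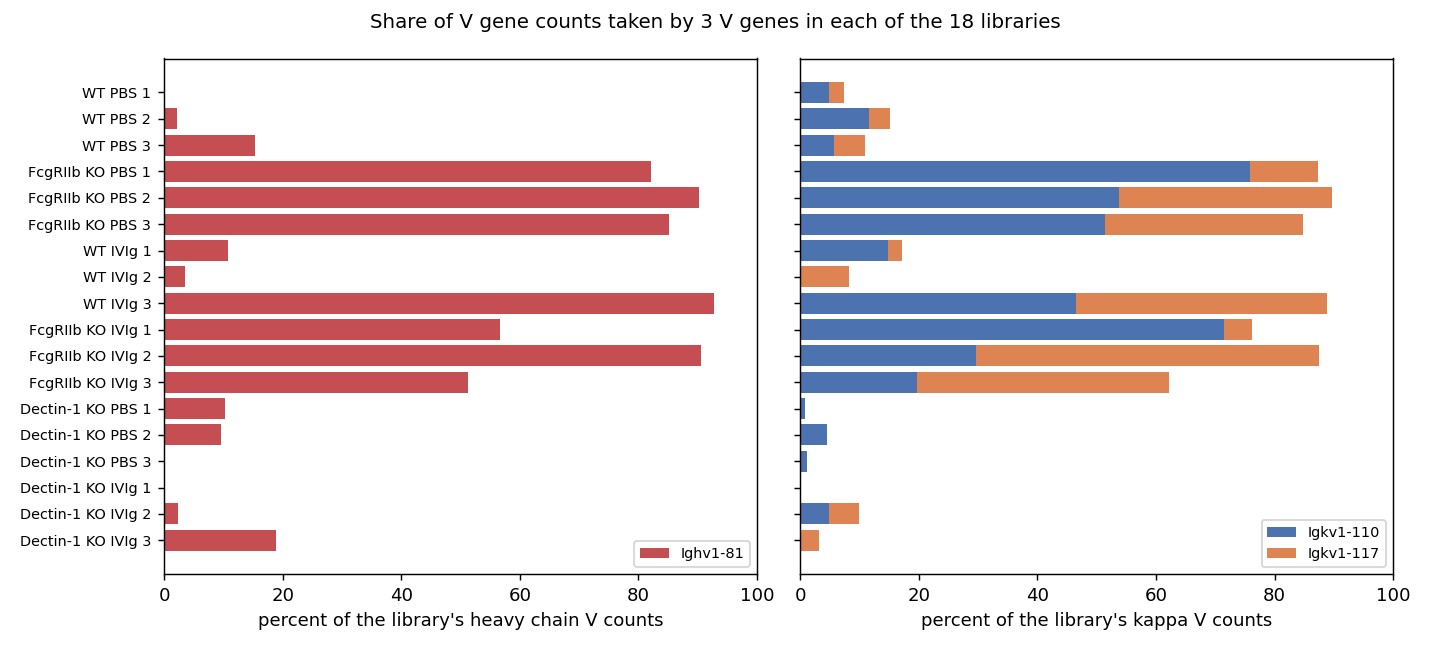
Share of V gene counts taken by Ighv1-81 (of heavy chain V counts) and by Igkv1-110 and Igkv1-117 (of kappa V counts), in percent, for each of the 18 libraries by group. Bar lengths are the shares in each library, with Igkv1-117 stacked on Igkv1-110. The 6 FcgRIIb knockout libraries and WT IVIg replicate 3 lie above 50% for Ighv1-81.

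Markers of the cells that make immunoglobulin were counted too. The 12 plasma cell markers, which include Jchain and Mzb1, summed to 678, 648 and 597 CPM in WT and to 706, 1501 and 813 CPM in the knockout, with no overlap. The sums overlap once the Jchain levels given above are taken away, and 6 of the 12 markers were at 0 in the shallow library. The 16 B cell markers summed to 47.8 to 80.7 CPM in WT and 65.2 to 102 CPM in the knockout, and 11 of the 16 were at 0 in the shallow library. Cd79b, a chain of the B cell antigen receptor complex, stood at 19.9, 14.4 and 16.6 CPM in WT and at 27.1, 35.3 and 28.5 CPM in the knockout, with no overlap. Its partner Cd79a stood at 2.16, 1.64 and 5.90 CPM against 12.5, 0 and 3.82 CPM, and overlapped. Mzb1, a chaperone of antibody-secreting cells, stood at 0.956, 0.523 and 0.723 CPM against 5.18, 0 and 7.34 CPM; the 2 deeper knockout libraries were above all WT libraries. Of the 16 B cell markers 1 was higher with an unadjusted p under 0.05, against 6.14% of all genes. The list median was 0.58, and it was -0.20 without knockout PBS replicate 1 and 1.84 without WT PBS replicate 3. The part that B-lineage cells or their free RNA took in the immunoglobulin levels was not tested.

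Genes for the machinery of respiration and translation were also higher in the knockout than in WT. The nuclear-encoded respiratory chain subunits, which form complexes I to V of the inner mitochondrial membrane, had a median log2 difference of 0.91 over 74 genes, against -0.05 over all genes tested. Of the 74, 73 were higher, 57 with an unadjusted p under 0.05, and in 29 the groups did not overlap, against the 6.14% and 3.63% of all genes given above. The cytosolic ribosomal proteins had a median of 0.87 over 78 genes, all 78 higher, 55 with an unadjusted p under 0.05 and 39 with no overlap. Respiratory subunits summed to 6857, 6368 and 5329 CPM in WT and 7519, 8338 and 14388 CPM in the knockout, and ribosomal proteins to 51173, 50661 and 34913 CPM against 55365, 77001 and 118762 CPM. On both sums knockout replicate 3 was by far the highest, and knockout replicate 1 was just above the WT range. Without replicate 3 the medians were 0.40 and 0.50, without replicate 1 they were 1.22 and 1.12, and without the shallow library 0.98 and 0.95. The 13 subunits encoded by mitochondrial DNA had a median of 0.48 with the shallow library and -0.08 without it. The higher sums were not particular to the FcgRIIb knockout. Dectin-1 knockout PBS libraries also lay above the WT PBS range, at 7522 to 8915 CPM for nuclear-encoded respiratory subunits and 55034 to 68506 CPM for ribosomal proteins.

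The 4 respiratory subunits with the smallest unadjusted p were Cox5b, Cox7b, Ndufa3 and Ndufs8. Their promoters are shown because the members of this group lay higher together, each from 120 bases before to 30 bases after the transcript start that RefSeq gives in the mouse build GRCm38.p6. Capitals mark a match to TGCGCA, the core of the site of NRF1, a known activator of respiratory genes, or to CCGGAA, the core of ETS factor sites, searched on both strands (TTCCGG on the other). The positions are Cox5b at chr1:36691367-36691516 on the plus strand, Ndufs8 at chr19:3912745-3912894 on the minus strand, Ndufa3 at chr7:3617253-3617402 on the plus strand and Cox7b at chrX:106015580-106015729 on the plus strand.
Cox5b: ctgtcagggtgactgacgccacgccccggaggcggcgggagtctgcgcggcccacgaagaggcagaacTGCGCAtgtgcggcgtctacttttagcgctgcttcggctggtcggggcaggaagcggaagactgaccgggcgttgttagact
Ndufs8: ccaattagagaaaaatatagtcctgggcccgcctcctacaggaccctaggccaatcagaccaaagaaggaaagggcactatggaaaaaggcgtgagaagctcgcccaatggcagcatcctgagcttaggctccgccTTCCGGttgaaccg
Ndufa3: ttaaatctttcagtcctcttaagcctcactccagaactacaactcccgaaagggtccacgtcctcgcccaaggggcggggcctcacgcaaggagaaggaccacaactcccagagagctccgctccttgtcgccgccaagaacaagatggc
Cox7b: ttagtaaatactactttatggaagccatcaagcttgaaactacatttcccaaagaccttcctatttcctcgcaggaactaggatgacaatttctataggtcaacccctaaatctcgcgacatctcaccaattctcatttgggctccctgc

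Cox5b held the NRF1 core and Ndufs8 the ETS core, while neither string was in the windows of Ndufa3 and Cox7b. Of the 74 respiratory genes 62 matched the RefSeq table by symbol, and 20 of these (32.3%) held CCGGAA and 13 (20.97%) held TGCGCA, against 11.9% and 6.06% of 27025 genes with a window of the same length. Of 57 matched ribosomal protein genes 25 (43.9%) held CCGGAA and 10 (17.5%) held TGCGCA. The 27025 genes are all those with a window, whether or not they were tested in these libraries. A match describes the letters only.

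In the counts, Cox5b, a subunit of cytochrome c oxidase, stood at 57.9, 56.0 and 43.4 CPM in WT and at 92.3, 121 and 171 CPM in the knockout. Ndufs8, an iron-sulfur subunit of complex I, stood at 61.3, 49.9 and 48.3 CPM against 74.5, 117 and 144 CPM. Ndufa3, another complex I subunit, stood at 50.5, 37.1 and 37.6 CPM against 59.0, 165 and 145 CPM. In these 3 genes, whether a motif was found or not, no knockout library fell into the WT range, and replicate 1 lay nearest to it. Cox7b, also of cytochrome c oxidase, stood at 57.0, 49.7 and 44.1 CPM against 72.9, 148 and 152 CPM. The 4 log2 differences lay between 1.06 and 1.44, with an adjusted p of 0.476 in edgeR's quasi-likelihood test for each. Among ribosomal proteins, Rpl10a stood at 281, 276 and 193 CPM in WT against 376, 857 and 749.6 CPM, and Rpl37a at 385, 372 and 278 CPM against 539.9, 1395 and 1435 CPM. Rpl39 stood at 188, 161 and 105 CPM against 161, 2081 and 557 CPM, so that its log2 difference of 2.53 became 1.24 without the shallow library.

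Both groups consist of short genes, and short genes were higher in the knockout libraries over the whole transcriptome. Split by exon length into 5 bins of 3408 genes, the genes tested had median log2 differences of 0.06, 0.20, 0.05, -0.11 and -0.34 from the shortest bin (up to 1308 bases) to the longest (6597 bases or more). Over 5049 abundant genes, exon length and the log2 difference had a Spearman correlation of -0.59 as a description across genes of the same libraries, and -0.65 without the shallow library. Within each library, the correlation of exon length with the deviation from the mean library was 0.261, 0.378 and 0.533 in WT and 0.139, 0.00372 and -0.653 in the knockout. Knockout replicate 3, with the steepest tilt to short genes, also had the most Rn18s. The respiratory subunits had a median exon length of 1737 bases and the ribosomal proteins of 1775.5, against 3457.5 over all genes tested. With the length trend of each library taken out by a spline, the medians of the 2 groups were 0.59 and 0.67. The spline was fitted to the 5049 abundant genes, over which the correlation was then -0.01. Over all genes tested, the 5 bins then had medians of -0.38, -0.04, 0.04, 0.11 and 0.12, the opposite tilt. The part of RNA quality or library preparation in this tilt was not tested.

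**Figure D3:**
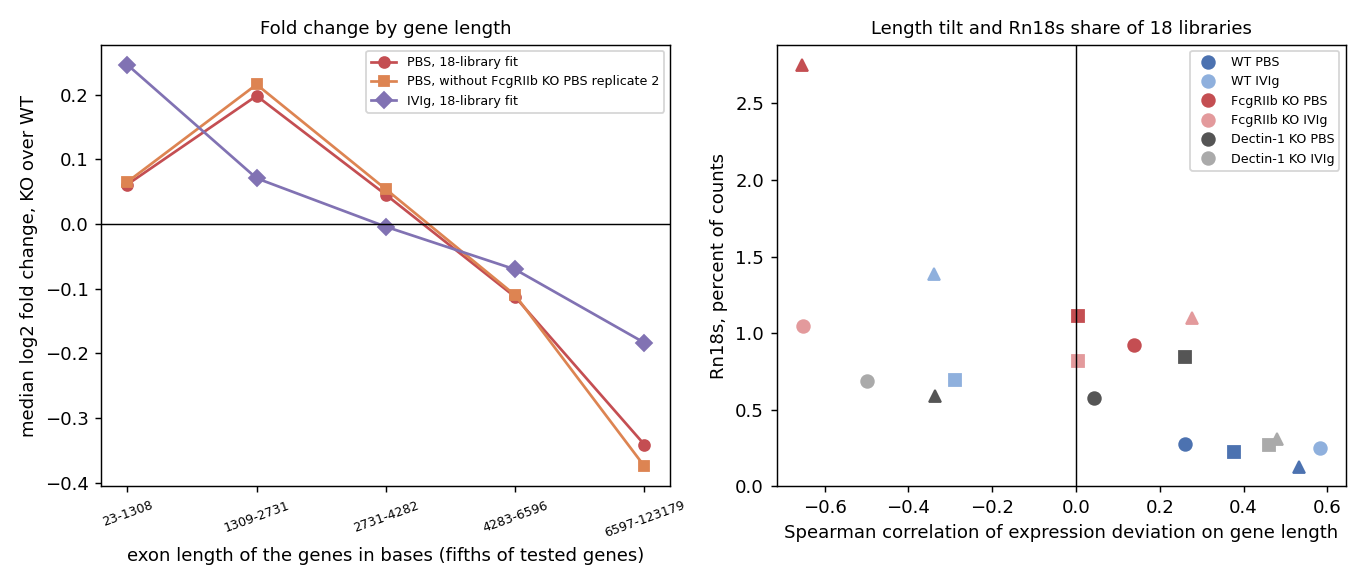
Left, median log2 difference between knockout and WT (y axis) for 5 equal bins of the tested genes by exon length in bases (x axis), in PBS mice with and without the shallow library and in IVIg mice; right, for each of the 18 libraries (circle, square and triangle for replicates 1, 2 and 3), the Spearman correlation of exon length with the deviation from the mean library (x axis) and the percentage of counts on Rn18s (y axis). In PBS mice the medians go from 0.20 in the bin of 1309 to 2731 bases to -0.34 in the longest, and knockout PBS replicate 3 holds the lowest PBS correlation, -0.653, with 2.75% Rn18s.

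**Figure D4:**
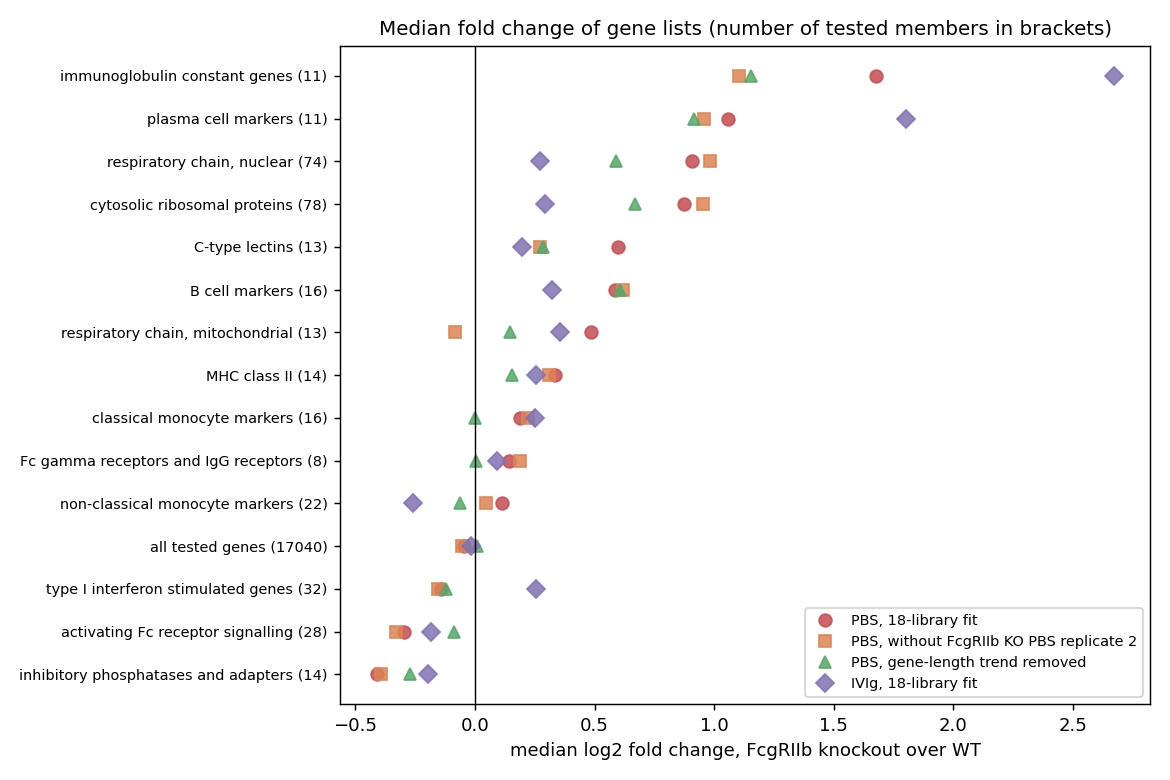
Median log2 difference, knockout minus WT, of selected gene lists and of all genes tested. Values are shown in PBS mice over all libraries, without the shallow library and with the length trend removed, and in IVIg mice. Respiratory subunits and ribosomal proteins lie at 0.91 and 0.87 in PBS mice and at 0.27 and 0.29 in IVIg mice.

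Outside these groups, the genes with the smallest unadjusted p included ribosomal and ribosome-related transcripts. Rn18s, the 18S ribosomal RNA itself, stood at 2666, 2229 and 1191 CPM in WT and 9003, 11282 and 32111 CPM in the knockout. Lars2, the mitochondrial leucyl-tRNA synthetase, stood at 148, 205 and 104.3 CPM against 636, 1427 and 2217 CPM. Mir6236, annotated as a microRNA gene, stood at 8.71, 16.2 and 5.30 CPM against 68.3, 139.8 and 235 CPM. All 3 had the same order of the knockout libraries, with replicate 3 highest and replicate 1 lowest but still above every WT library. The log2 differences were 3.11 ± 0.60 (SE), 3.23 ± 0.57 and 3.88 ± 0.79. In the IVIg mice they were 0.34, 0.22 and 0.14. The kit selects messenger RNA, so the level of a ribosomal RNA also depends on how complete that selection was, which was not tested. Gene-level counts do not show whether the fragments counted for Lars2 and Mir6236 came from their own transcripts, and this was not tested either.

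C-type lectins of the Dcir cluster and Cd209a were higher in the knockout libraries. Clec4b1, a lectin of this cluster on myeloid cells (chr6:123026921-123048514), stood at 9.89, 8.70 and 6.38 CPM in WT and at 17.7, 22.6 and 29.96 CPM in the knockout. Clec4a2, an inhibitory lectin with an ITIM from the same cluster, stood at 85.7, 62.5 and 56.2 CPM against 104.4, 277 and 162 CPM. Cd209a, the lectin of monocyte-derived dendritic cells, stood at 195, 194 and 182 CPM against 337, 379.8 and 314 CPM. No knockout library of these 3 genes lay in the WT range, and for Cd209a the spread within each group was small beside the gap. The log2 differences were 1.51 ± 0.32 (SE), 1.25 ± 0.34 and 0.83 ± 0.23. Their adjusted p-values were 0.167, 0.476 and 0.476 in edgeR's quasi-likelihood test and 0.00481, 0.0261 and 0.0403 in DESeq2. Clec10a, a galactose lectin, stood at 55.2, 57.0 and 45.4 CPM in WT and 72.1, 59.3 and 119 CPM in the knockout. Over the 13 lectins tested, 10 were higher, with a median of 0.60. Of the 13, 7 were higher with an unadjusted p under 0.05 and 5 with no overlap, against 6.14% and 3.63% of all genes. Without the shallow library 4 had such a p, against 6.86% of all genes, and the median was 0.27. With the length trend removed the median was 0.28. In the IVIg mice Clec4b1 differed by 0.01, Cd209a by 0.17 and the lectin median by 0.19.

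MHC class II genes, which present antigen to helper T cells, leaned the same way. H2-Aa, the alpha chain of I-A, stood at 1049, 1652 and 1232 CPM in WT and at 1868, 3674 and 2161 CPM in the knockout. H2-DMa, a chain of the peptide exchanger H2-M, stood at 237, 252 and 221 CPM against 354, 320.5 and 453 CPM. H2-DMb1, its partner, stood at 89.4, 128 and 128 CPM against 198, 103 and 259 CPM. The groups were separate for the first 2, whereas for H2-DMb1 the shallow library fell into the WT range. The log2 differences were 0.96, 0.69 and 0.80, and 0.62, 0.76 and 0.99 without the shallow library. Of the 14 class II genes 12 were higher, 3 of them with an unadjusted p under 0.05, against 6.14% of all genes. The median was 0.34, and 0.15 with the length trend removed. Summed, the class II genes lay at 8879.9 to 12465 CPM in WT and 12875 to 16227 CPM in the knockout.

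Other surface and cytoplasmic genes higher in the knockout were Cd52, Lst1, Lgals1, Tmem258, Dynlrb1 and Cd48. Cd52, a small glycoprotein anchored in the leukocyte membrane, stood at 347, 301 and 274 CPM in WT and 379, 1845 and 962 CPM in the knockout. Lst1, a small transmembrane protein of myeloid cells, stood at 177, 127 and 113 CPM against 218, 497 and 386 CPM. Lgals1, the secreted lectin galectin-1, stood at 133, 103 and 81.3 CPM against 178, 333 and 429 CPM. In these genes replicate 1 of the knockout was close to the WT libraries and the other 2 were well above. Tmem258, a subunit of the oligosaccharyltransferase, and Dynlrb1, a dynein light chain, had log2 differences of 1.33 and 1.26, against 1.74 for Cd52, 1.34 for Lst1 and 1.55 for Lgals1. Without the shallow library Cd52 differed by 1.12 and Lgals1 by 1.51.

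Cd48, the ligand of the SLAM family receptor 2B4, lies close to Fcgr2b (chr1:171509577-171532826). It stood at 195, 180.1 and 134 CPM in WT and at 236, 607 and 372 CPM in the knockout, with no overlap and the shallow library highest. The log2 difference was 1.18 ± 0.29 (SE), with an adjusted p of 0.400 in edgeR's quasi-likelihood test, 0.84 without the shallow library and 0.12 in the IVIg mice. Within 5 Mb of Fcgr2b, where a knockout made in another strain can keep that strain's alleles, 110 of 256 annotated genes were tested. Of the 110, 12 were higher and 3 lower at an unadjusted p under 0.05, against 6.14% and 3.50% of all genes. None was called, and the median difference was 0.04, against -0.05 over all genes. Of these 15 genes 1, Fcgr2b itself, had an unadjusted p under 0.05 with the same sign in the IVIg mice too. Besides Cd48, Fcer1g and Fcgr2b, the genes here with the smallest p included Fh1, the fumarate hydratase of the citric acid cycle, at 54.7, 53.2 and 48.6 CPM against 74.7, 57.9 and 107 CPM. Ufc1, Nectin4 and Nr1i3 had log2 differences of 0.85, 0.71 and 0.63. The SLAM family genes beside Fcgr2b had a median of 0.09 over 9 genes, 2 of them with an unadjusted p under 0.05. The Ifi200 family, DNA sensors from the same stretch of the chromosome, had a median of -0.21 over 12 genes, 1 of them lower with such a p. That median was -0.44 without the shallow library, 0.05 without knockout PBS replicate 1 and 0.33 in the IVIg mice.

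Siglec1, Maf and Cd93 were among the genes lower in the knockout. Siglec1, the sialic acid receptor of macrophages (chr2:130911140-130928685), stood at 75.2, 74.4 and 89.0 CPM in WT and at 37.6, 0 and 12.8 CPM in the knockout. Maf, a transcription factor of macrophages, stood at 50.3, 44.4 and 53.1 CPM against 22.4, 5.65 and 25.3 CPM. Cd93, a receptor of myeloid and endothelial cells, stood at 125, 216 and 212 CPM against 95.8, 70.6 and 65.4 CPM. The knockout libraries lay below all WT libraries in these 3 genes, and the WT libraries of Siglec1 and Maf were close together. The log2 differences were -1.76 ± 0.46 (SE), -1.12 ± 0.32 and -1.22 ± 0.37. Without the shallow library they were -1.65, -1.05 and -1.19. Over all processing alternatives they ran from -2.75 to -1.32, from -1.32 to -0.65 and from -1.47 to -0.89. In the IVIg mice Siglec1 differed by 0.09 and Maf by -0.04. Lower genes tended to be long. Of the 596 genes lower at an unadjusted p under 0.05 in PBS mice, 280 were in the longest of the 5 length bins. With the length trend removed, 51 genes of that bin were lower at such a p. Red pulp macrophage markers, another spleen cell type, summed to 1150 to 1395 CPM in WT and 1041 to 1292 CPM in the knockout, with a median log2 difference of -0.26 over 12 genes and 0 of the 12 at an unadjusted p under 0.05 in edgeR's quasi-likelihood test.

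The remaining lower genes named by the rule were Ndst1, Fam20c, Klf9, Trib1, Cblb, Lifr, Vav3, Zfp626 and Zfp971. Ndst1, which sulfates heparan sulfate chains, stood at 91.7, 73.7 and 142 CPM against 33.6, 0 and 31.3 CPM. Fam20c, a kinase of secreted proteins, stood at 48.3, 31.8 and 29.8 CPM against 12.4, 0 and 11.9 CPM. Klf9, a transcription factor responsive to glucocorticoids, stood at 29.6, 42.3 and 11.2 CPM against 10.98, 0 and 8.07 CPM. The shallow library had no count for these 3 genes and the 2 deeper knockout libraries were close to each other. Cblb, a ubiquitin ligase that restrains immune receptors, stood at 60.6, 142 and 85.7 CPM against 47.5, 28.2 and 30.6 CPM. Trib1, a pseudokinase of myeloid cells, stood at 37.7, 70.5 and 80.2 CPM against 35.3, 7.06 and 27.4 CPM. In both genes WT replicate 1 was the lowest WT library and lay near knockout replicate 1. Lifr, the receptor for leukemia inhibitory factor, differed by -1.03, with -1.26 to -0.48 over all processing alternatives. The zinc finger genes Zfp626 and Zfp971 differed by -1.24 and -1.11. Tlr4, the receptor for lipopolysaccharide, stood at 33.7, 39.01 and 44.7 CPM in WT and 20.2, 202 and 18.4 CPM in the knockout. The shallow library thus decided its value, which was -0.11 with it and -1.02 without it, where edgeR's quasi-likelihood test gave an unadjusted p of 0.0006.

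The components of activating Fc receptor signalling were mostly lower. Of 28 genes, 23 were lower, 5 of them with an unadjusted p under 0.05, and in 4 all knockout libraries lay below all WT libraries; the background for these counts is 3.50% and 7.95%. Syk, the kinase that binds the phosphorylated gamma chain, stood at 480.0, 628 and 959.9 CPM in WT and at 472, 107 and 282 CPM in the knockout. Vav3, a guanine nucleotide exchange factor of this pathway, stood at 69.2, 69.3 and 77.2 CPM against 44.6, 4.24 and 31.5 CPM. Its relative Vav2 stood at 42.3, 55.1 and 70.9 CPM against 37.8, 12.7 and 18.6 CPM. The groups were separate in all 3, though Syk in knockout replicate 1 lay just under WT replicate 1. Lat2, an adapter of the same pathway, stood at 87.0, 75.3 and 74.3 CPM against 101, 59.3 and 176 CPM, the opposite lean. The median of the 28 genes was -0.30, and -0.09 with the length trend removed. Without the shallow library it was -0.33, with 21 of the 28 lower. Their median exon length was 4511.5 bases.

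The inhibitory side of the pathway gave similar values. Of 14 inhibitory phosphatases and adapters, the proteins that FcgRIIb and its relatives recruit, 13 were lower, against 9047 of 17040 over all genes tested. Of these lower genes 2 had an unadjusted p under 0.05, against 3.50% of all genes. Without the shallow library 10 were lower, 3 of them at such a p, against 3.13% of all genes. The median of the 14 genes was -0.41, -0.39 without the shallow library and -0.27 with the length trend removed. Their median exon length was 7047.5 bases. Pag1, an adapter that holds the kinase Csk at the membrane, stood at 84.2, 196 and 148 CPM in WT and at 92.0, 60.7 and 36.5 CPM in the knockout, so that knockout replicate 1 lay inside the WT range. The other inhibitory receptors with an ITIM had a median of -0.02 over 14 genes. Ceacam1, one of them, stood at 265, 317 and 392 CPM against 205, 202 and 101 CPM, with no overlap. Clec12a, another, stood at 462, 272 and 195 CPM against 331, 796 and 573 CPM, and overlapped.

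Markers of the 2 monocyte subsets gave no single direction. Classical markers summed to 14491 to 22587 CPM in WT and 14701 to 17698 CPM in the knockout, and non-classical markers to 7696 to 9899 CPM and 7262 to 8925 CPM. Chil3, a chitinase-like protein of classical monocytes, stood at 6576, 3165 and 1141 CPM in WT and 949, 1971 and 2035 CPM in the knockout, so the WT mice alone spanned a wider range. Ms4a4c, a membrane protein of classical monocytes, stood at 426, 439 and 403 CPM against 457, 1367 and 864 CPM. Nr4a1, the nuclear receptor needed for non-classical monocytes, stood at 581, 669 and 564 CPM against 504, 158 and 396 CPM. For the latter 2 genes the groups did not overlap, with log2 differences of 1.04 and -0.69, which were 0.64 and -0.43 without the shallow library. Pparg, a lipid-sensing nuclear receptor, stood at 27.5, 32.4 and 22.4 CPM against 37.2, 70.6 and 43.4 CPM. The list medians were 0.19 over 16 classical genes and 0.11 over 22 non-classical genes. At an unadjusted p under 0.05, 1 classical gene was higher and 3 lower, and 2 non-classical genes were higher and 2 lower. Over all genes these shares were 6.14% higher and 3.50% lower. Without the shallow library the medians were 0.22 and 0.05. The classical counts were then 1 higher and 3 lower, and the non-classical counts 2 higher and 0 lower.

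Type I interferon stimulated genes, which report signalling through the interferon receptor, had a median of -0.14 over 32 genes, with 8 lower and 0 higher at an unadjusted p under 0.05 in edgeR's quasi-likelihood test, against 3.50% of all genes lower. Without the shallow library 4 were lower at such a p, and with the length trend removed 3. In the IVIg mice 25 of the 32 genes were higher, with a median of 0.25. Oas3, a sensor of double-stranded RNA, stood at 181, 258 and 267 CPM in WT and 183, 112 and 115 CPM in the knockout. Oas2 stood at 12.8, 16.4 and 58.7 CPM against 10.1, 15.5 and 7.61 CPM. In both the groups overlapped, at WT replicate 1, and only WT replicate 3 was far above for Oas2. Without knockout PBS replicate 1 the median of the list was 0.03.

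The lists for other processes were summarised in the same way. NF-kB feedback genes had a median of -0.28 over 18 genes, 14 of them lower and 1 of these with an unadjusted p under 0.05, against 3.50% of all genes. The NF-kB median was -0.47 without knockout PBS replicate 1 and -0.19 without the shallow library. Complement genes had a median of -0.19 over 15, with 1 lower at such a p, and -0.55 without knockout PBS replicate 1. Glycolysis genes had a median of 0.10 over 15 and 0 at an unadjusted p under 0.05 in edgeR's quasi-likelihood test, but without the shallow library the median was 0.28 and 6 of 15 were higher at such a p, against 6.86% of all genes. Immediate early genes had a median of 0.06 over 19, lysosomal genes of 0.02 over 30, cholesterol synthesis of 0.10 over 17 and the unfolded protein response of -0.01 over 18. These 4 medians were, in the same order, 0.10, 0.10, 0.17 and -0.15 without the shallow library. Cell cycle genes had a median of 0.33 over 31, with 22 higher, 2 of them with an unadjusted p under 0.05, against 6.14% of all genes. Their median was 0.12 without knockout PBS replicate 1. MHC class I presentation had a median of 0.12 over 14. Markers of other spleen cells were also counted. T cell markers summed to 39.03 to 59.4 CPM in WT and 38.1 to 53.2 CPM in the knockout, NK cell markers to 35.1 to 47.4 and 48.0 to 66.9 CPM, and neutrophil markers to 278 to 392 and 343 to 440 CPM. Erythroid markers summed to 4.62 to 9.23 CPM in WT and 12.3 to 25.4 CPM in the knockout, dendritic cell markers to 218 to 275 and 193 to 298 CPM, and platelet markers to 36.5 to 64.5 and 12.7 to 69.3 CPM. The NK and erythroid sums did not overlap between the groups, but 13 of 16 NK and 12 of 13 erythroid markers were at 0 in the shallow library, where a single count is worth more than the gap between the NK sums. The part of these cells in any result was not tested. The plasma cell markers had a median of 1.06 over the 11 genes tested, 3 of them higher at an unadjusted p under 0.05, against 6.14% of all genes.

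Wdfy1 was the lower gene with the smallest unadjusted p, and it split the WT mice too. Wdfy1, a phosphoinositide-binding adapter of Toll-like receptor signalling (chr1:79679979-79753860), stood at 50.6, 46.7 and 11.1 CPM in WT and at 4.84, 1.41 and 5.25 CPM in the knockout. The log2 difference was -2.87 ± 0.68 (SE), with an adjusted p of 0.302 in edgeR's quasi-likelihood test and 0.00323 in DESeq2, and -2.40 in the IVIg mice. Nnt, the mitochondrial transhydrogenase, part of which is deleted in the C57BL/6J substrain, was chosen after its values were seen. It stood at 54.8, 52.7 and 14.3 CPM in WT and at 20.6, 24.0 and 21.5 CPM in the knockout. Over the 18 libraries, WT PBS replicates 1 and 2 and WT IVIg replicate 2 were high in both genes, with Wdfy1 at 42.2 to 50.6 CPM and Nnt at 48.6 to 54.8 CPM. WT PBS replicate 3 and WT IVIg replicate 1 held Wdfy1 at 11.1 and 12.7 CPM and Nnt at 14.3 and 17.5 CPM. All 12 knockout libraries of either genotype had Wdfy1 at 1.41 to 6.84 CPM and Nnt at 12.96 to 24.0 CPM, and WT IVIg replicate 3, at 5.97 CPM of Wdfy1, lay in that range for Wdfy1. Whether the mice differed in substrain was not tested.

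**Figure D5:**
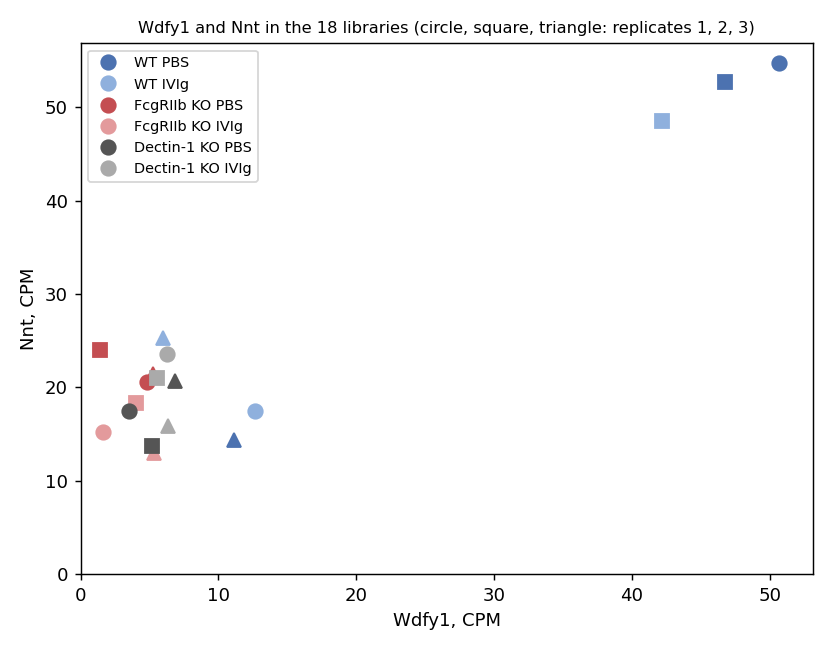
Wdfy1 (x axis) against Nnt (y axis), both in CPM, for the 18 libraries, 1 point each, coloured by group. WT PBS replicates 1 and 2 and WT IVIg replicate 2 lie at the upper right, at 42.2 to 50.6 CPM of Wdfy1, and every other library lies at 12.7 CPM of Wdfy1 or less.

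The comparison in IVIg mice shares no library with that in PBS mice and gave 2 called genes of 17040 (0.0117%), both immunoglobulin genes that were higher in the knockout. Igkj2, a kappa J segment, rose by a log2 difference of 4.81 ± 0.47 (SE), with an adjusted p of 4.05e-05 in edgeR's quasi-likelihood test. In PBS mice it stood at 1.61, 2.62 and 2.05 CPM in WT and 7.67, 49.4 and 14.5 CPM in the knockout, with a log2 difference of 2.60. Ighg2b, with an adjusted p of 0.0422 in the same edgeR test, rose in IVIg mice too. It stood at 0, 1.31 and 0 CPM in WT IVIg libraries and at 6.01, 33.5 and 4.75 CPM in knockout IVIg libraries. The Ighg2b call was lost in 15 of 26 alternatives and the Igkj2 call in 0 of 26. Igha differed by 3.09 in IVIg mice, Igkc by 2.67 and Jchain by 3.01, each smaller than in PBS mice, and WT IVIg replicate 3 with its high immunoglobulin levels was among the WT libraries there. Without that library 6 genes were called. Fcgr2b differed by -0.58 in both treatments. The interaction, which tests whether the genotype difference depends on IVIg, called 0 of 17040 genes (0%) in edgeR's quasi-likelihood test, with 487 at an unadjusted p under 0.05, and 1 in DESeq2.

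The comparison with Dectin-1 knockout mice in PBS shares the 3 FcgRIIb knockout libraries with the PBS comparison against WT, and 15 of 17040 genes were called in it (0.0880%), 12 higher and 3 lower in the FcgRIIb knockout. Of these, 6 were immunoglobulin genes: Igkc, Igkv1-110, Igkj2, Igkj5, Ighj3 and Ighj4. Igkc stood at 24.2, 13.1 and 12.9 CPM in the Dectin-1 knockout, a log2 difference of 4.98 ± 0.85 (SE) with an adjusted p of 0.0213 in edgeR's quasi-likelihood test. The other 9 called genes lie on chromosome 6, among them Clec7a, the gene deleted in the Dectin-1 knockout. It stood at 2.24, 2.36 and 4.05 CPM there and 530, 956 and 742 CPM in the FcgRIIb knockout. For these 9 the log2 differences lay between -5.27 (Emp1) and 10.6 (Klri2). Between FcgRIIb knockout and WT in PBS mice they lay between -0.72 (Emp1) and 1.25 (Klrb1b). Emp1, for example, averaged 17.6 CPM in WT and 10.9 CPM in the FcgRIIb knockout, against 527, 370 and 338 CPM in the Dectin-1 knockout. A difference from the Dectin-1 knockout is thus not by itself a difference from WT. Respiratory subunits differed by a median of 0.42 and ribosomal proteins by 0.51 in this comparison. Wdfy1 differed by -0.05. The count of called genes was 8 without the shallow library, 5 without FcgRIIb knockout PBS replicate 3, and 5 or 6 without any 1 of the Dectin-1 knockout PBS libraries.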

How the data were processed

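Monocyte RNA from 18 mouse samples was made into libraries with a kit that selects messenger RNA and keeps its strand, per the labels' protocols. The deposited file holds raw counts per gene, which the authors made with featureCounts 2.0.2 on read pairs, per the file headers, with primary alignments, fragments given to every gene they overlap and no strand option. Overlapping and antisense genes therefore cannot be told apart. The build was GRCm39 with Ensembl annotation 104, per the file headers, and the submitters' processing notes name STAR and edgeR 3.36. The version of STAR is not given here. A further 18 columns of the file match no sample and were not used. Genes were named by the symbols in the file, and 1492 of 55416 genes had none.

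Counts were tested with edgeR 4.0.16 (R 4.3.3): edgeR's default low-count filter over the 6 groups, trimmed mean of M-values scaling, and 1 quasi-likelihood fit of all 18 libraries with a term per group (12 residual degrees of freedom), repeated on 17 libraries (11) without the shallow one. P-values were adjusted over all genes tested. The fit of all groups was chosen because 3 libraries a group give a poor estimate of spread. Log2 CPM used a prior count of 2, and the threshold was 0.05. DESeq2 1.42.0, limma 3.58.1 with voom, other scaling, filters, a removed length trend and leaving out each library were the alternatives. The edgeR test was also run on simulated counts drawn without a gene-length tilt, so that check does not cover the tilt of these libraries. Depths ran from 719494 to 48958909 counts. Nothing but the series text, which gives 3 independent mice per group, tells how samples were kept apart, so p-values measure the spread between these samples.

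The members and gene lists (34 lists) were chosen with earlier results of these data known, so no list's direction is independent evidence. Named genes were the 12 higher and 12 lower with the smallest unadjusted p among genes that averaged 10 CPM or more, differed by 1 or more on the log2 scale in either direction and had groups without overlap, 5 more in each direction by the same rule without the shallow library, up to 4 members of each list, the Fc receptors and immunoglobulin constant genes, and 6 genes within 5 Mb of Fcgr2b. V and J segments, Nnt and Trpm3 were chosen after their values were seen. Promoter windows came from RefSeq, GRCm38.p6. Figures were drawn with matplotlib 3.10.9.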

Additional observations from a re-analysis of the deposited data

How the results depend on the processing

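No paired analysis was possible because the labels give no replicate numbers; those used here follow the order of deposition. For FcgRIIb knockout against WT in PBS, where 0 genes were called, DESeq2 called 179, no low-count filter 10 and a fit of the 2 groups alone 8; leaving out 1 library gave 0 to 40. Without the shallow library, also 0, the same settings gave 19, 7 and 5, and leaving out another library 0 to 10. For IVIg mice (2 called), the scaling of DESeq2's size factors, the legacy quasi-likelihood fit, voom and the 2 groups alone each gave 1, leaving out immunoglobulin, haemoglobin and mitochondrial genes 0, and leaving out a library 1 to 6. Against the Dectin-1 knockout (15 called), DESeq2 gave 110, voom 8, the setting without immunoglobulin genes 8, and leaving out a library 5 to 20. The interaction gave 1 with DESeq2 and 0 for every left-out library. The causes were not tested. Of 2881 values of named genes under the alternatives, 31 had the other sign. Fcgr1 was 0.012 with voom and -0.40 to 0.12 over left-out libraries, and Fcgr3 was -0.062 with the length trend removed. Fcgr4 was 0.21 with DESeq2, 0.0022 with its size factors, 0.011 with a stricter filter, 0.16 with the legacy fit, 0.12 with the 2 groups alone and -0.22 to 0.31 over left-out libraries. Ighd was -0.23 with DESeq2, -0.17 with the legacy fit, -0.16 with the length trend removed and -0.96 to 0.79 over left-out libraries. Tlr4 was 1.06, 0.90 and 0.60 with DESeq2, the legacy fit and the 2 groups alone, 0.14 with the length trend removed and -1.02 to 0.58 over left-out libraries. Left-out libraries moved Ighg1 from -2.98 to 1.92 and Iglc3 from -0.39 to 1.44. The median of all genes lay between -0.11 and 0.01 in all settings. In the shallow library, genes under 4.24 CPM rest on fewer than 3 counts.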
